A study of Mus musculus with 28 samples.

Results

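Cd72, Cx3cr1, Ifi27l2a, Ly9, Mpeg1, Dmpk, Chst3, Nes and Akr1c13 are 9 mouse genes that had been picked for lower RNA levels in macrophages carrying a short hairpin. They were found by symbol, and each of the 9 symbols was present in all 6 deposited tables, which list 36806 Ensembl entries under 33411 symbols. They lie on 9 different chromosomes. Because they had been chosen on knockdown over control, those values are a description here and carry no test. Checked against the tables, the description "lower in every knockdown" held for 3 of the 9 genes. Cd72, Cx3cr1 and Ifi27l2a were below the control in all 14 library pairs. Ly9, Mpeg1 and Akr1c13 were below it in all 10 Wdr82 pairs but above it in both pairs labelled Pnuts (Mpeg1 by 0.05 on the log2 scale, and after centring on the median gene 1 of these 2 pairs was below 0), and Ly9 also in 1 of 2 labelled Set1a/b. Dmpk, Chst3 and Nes were below it in every pair of newly made RNA in which they were tested. In polyA RNA Dmpk was above the control, and Chst3 and Nes were too low to test.

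Primary macrophages were grown from FVB/Hsd bone marrow for 7 days, with retroviral infection and puromycin selection on the way. Hairpins targeted Wdr82 (sh1137), Set1a together with Set1b, or Pnuts, and the control was the empty vector LMP or a scrambled hairpin. One kind of library held polyA RNA, and the other held RNA made during 45 min of labelling with 4-thiouridine (4sU), which enriches new transcripts. Some cells were stimulated with 10 ng/ml of lipopolysaccharide (LPS), which macrophages sense through TLR4. In 4sU RNA, sh1137 was set against LMP in an unstranded set (untreated, and 45 min, 2 h and 4 h of LPS) and a stranded set (untreated, and 1 h of LPS). Another Wdr82 set compared sh1137 with a scrambled hairpin after 45 min of LPS, with or without DRB, which blocks elongation by RNA polymerase II. The polyA set held sh1137 and LMP cells, untreated and after 4 h of LPS. The sets labelled Set1a/b and Pnuts held hairpin and scrambled cells, untreated and after 45 min of LPS, in stranded 4sU RNA. Each of the 28 libraries was the only one of its condition. A difference within 1 pair therefore has no replicate check, and the number of mice behind a library is not given. Whether the loss of a target or the carrying of any hairpin goes with a difference from LMP cannot be told apart within those sets, and the DRB, Set1a/b and Pnuts sets have a scrambled hairpin instead.

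WDR82 is a shared subunit of the SET1A and SET1B histone H3 lysine 4 methyltransferase complexes and of a protein phosphatase 1 complex that contains PNUTS. It binds RNA polymerase II early in the transcription cycle. The study asked how transcription outside genes is kept short, and the 9 genes are protein-coding genes seen in the same libraries. Several are surface or effector genes of myeloid cells. CD72, LY9 and CX3CR1 are receptors, MPEG1 is a pore-forming protein of macrophages, and IFI27L2A is an interferon-induced protein. The others are an aldo-keto reductase, a protein kinase, a sulfotransferase of the chondroitin sulfate chain and an intermediate filament.

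Levels are FPKM (fragments scaled to transcript length and library size) as the authors deposited them, so each is a share of the RNA in its library. In bulk RNA of this kind, fewer cells of a type and less RNA per cell cannot be told apart. Between 11466 and 13544 genes reached 1 FPKM per library. The depth is not in the tables, and the steps between low values gave a largest over smallest depth within a set of 1.59 (Set1a/b) to 3.33 (polyA). These are rough estimates. In untreated sh1137 cells of the polyA set, the commonest ratio was shared by only 10 of 4138 genes with low values. Wdr82 was at 10.3, 11.7, 11.8 and 16.2 FPKM in sh1137 cells of the unstranded set, against 21.6, 23.8, 26.99 and 32.5 FPKM in LMP cells. It was below the control in all 10 Wdr82 pairs, with a log2 ratio of -2.23 to -0.72. Ppp1r10, which encodes PNUTS, was above and not below its control where the label says Pnuts hairpin, at 144 and 332 FPKM against 89.5 and 203 FPKM in scrambled cells. In the libraries labelled Set1a/b, Setd1a was at 14.8 and 13.5 FPKM against 16.1 and 18.1 FPKM in scrambled cells, and Setd1b at 11.8 and 6.70 FPKM against 11.3 and 10.5 FPKM. The log2 ratio of Setd1b was 0.06 untreated and -0.58 after LPS. In 4sU RNA, Ppp1r10 was thus not lower under the Pnuts label. The sets labelled Set1a/b and Pnuts hold 4sU RNA only, and polyA RNA of their targets was not measured. Wdr82 had a median log2 ratio of -0.97 in its 4sU pairs and -2.07 in its polyA pairs. How far the targets of the Set1a/b and Pnuts sets were depleted can therefore not be read from these values. Ppp1r10 was also above the control in all 10 Wdr82 pairs, with log2 ratios of 0.72 to 1.60. Directions drawn from those libraries are given for the libraries labelled so.

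Promoter sequence was available in RefSeq for 7 of the 9 genes (GRCm38.p6, a later build than the mm9 of the tables). The 120 bases just before the start are shown for 6 of them, 2 for each motif found, to show where the matches lie. Dmpk is left out, since its match lies further from the start. The printed sequences run 5′ to 3′ on the gene's strand, and capitals mark the matched motif on either strand.
Cd72 (chr4:43454627-43454746, minus strand): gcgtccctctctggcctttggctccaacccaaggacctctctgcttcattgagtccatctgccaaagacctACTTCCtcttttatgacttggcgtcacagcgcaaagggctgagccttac
Akr1c13 (chr13:4191067-4191186, plus strand): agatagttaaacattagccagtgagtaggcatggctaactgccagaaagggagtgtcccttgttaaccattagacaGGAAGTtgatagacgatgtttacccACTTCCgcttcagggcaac
Cx3cr1 (chr9:120068297-120068416, minus strand): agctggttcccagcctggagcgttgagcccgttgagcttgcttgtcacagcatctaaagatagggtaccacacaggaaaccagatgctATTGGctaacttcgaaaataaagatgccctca
Mpeg1 (chr19:12460650-12460769, plus strand): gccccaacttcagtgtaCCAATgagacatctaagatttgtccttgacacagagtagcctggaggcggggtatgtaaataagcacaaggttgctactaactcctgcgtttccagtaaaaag
Chst3 (chr10:60219261-60219380, minus strand): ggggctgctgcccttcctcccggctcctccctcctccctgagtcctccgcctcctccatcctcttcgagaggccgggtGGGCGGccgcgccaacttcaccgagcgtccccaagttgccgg
Nes (chr3:87970973-87971092, plus strand): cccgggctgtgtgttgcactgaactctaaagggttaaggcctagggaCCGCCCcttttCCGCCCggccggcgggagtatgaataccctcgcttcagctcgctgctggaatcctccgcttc
In the 250 bases before the start, Cd72 and Akr1c13 held the ETS-type core GGAAGT, which 19.7% of 32851 promoters hold. Cx3cr1, Mpeg1 and Dmpk held CCAAT (33.8% of promoters), and Chst3 and Nes held the GC box GGGCGG (32.7%). None of the 7 held the AP-1 letters TGANTCA (6.75%), the interferon response core (GAAA, any 2 bases, GAAA; 2.98%) or TATAAA (12.4%). Both strands were searched, and none of the printed matches overlaps another. Chst3 and Nes had 18 and 15 CpG dinucleotides in the window, against 6 in Cd72, 4 in Cx3cr1, 2 in Mpeg1, 2 in Akr1c13 and 1 in Dmpk. The median of all promoters was 6, and 78.3% of promoters had fewer than Chst3 and 72.7% fewer than Nes. These are matches of letters only.

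A gene was tested in a pair when it reached 1 FPKM in either library, and was called when the log2 ratio of FPKM + 1 was past 2-fold. Beside each count of the 9 genes called lower stands the percentage of all tested genes so called. Since the genes were picked on this contrast, the counts describe them only. In the unstranded Wdr82 set, sh1137 was at least 2-fold lower than LMP for 8 of 9 genes (2.03%) in untreated cells. The counts were 8 of 9 genes (2.87%) after 45 min of LPS, 7 of 9 genes (3.09%) after 2 h and 5 of 8 genes (3.24%) after 4 h. The stranded set gave 8 of 9 genes (3.07%) untreated and 8 of 9 genes (4.27%) after 1 h of LPS. The DRB set gave 6 of 9 genes (1.56%) without DRB and 7 of 9 genes (4.7%) with it. In polyA RNA there were 5 of 7 genes (2.56%) untreated and 6 of 7 genes (2.81%) after 4 h of LPS. The libraries labelled Set1a/b gave 6 of 9 genes (1.72%) and 6 of 9 genes (2.5%) after LPS, and those labelled Pnuts 5 of 9 genes (2.47%) and 4 of 9 genes (3.84%). The 2 calls in the other direction were Dmpk in each polyA pair, where 2.83% (untreated) and 3.55% (4 h of LPS) of genes were 2-fold higher. In the other pairs 0 of the 9 genes were 2-fold higher. The shares of all genes there were 4.66, 7.8, 6.37 and 6.47% in the unstranded set, 6.79 and 7.34% in the stranded set, 3.71 and 3.99% in the DRB set, 2.52 and 3.44% for Set1a/b and 3.36 and 6.38% for Pnuts.

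**Figure D1:**
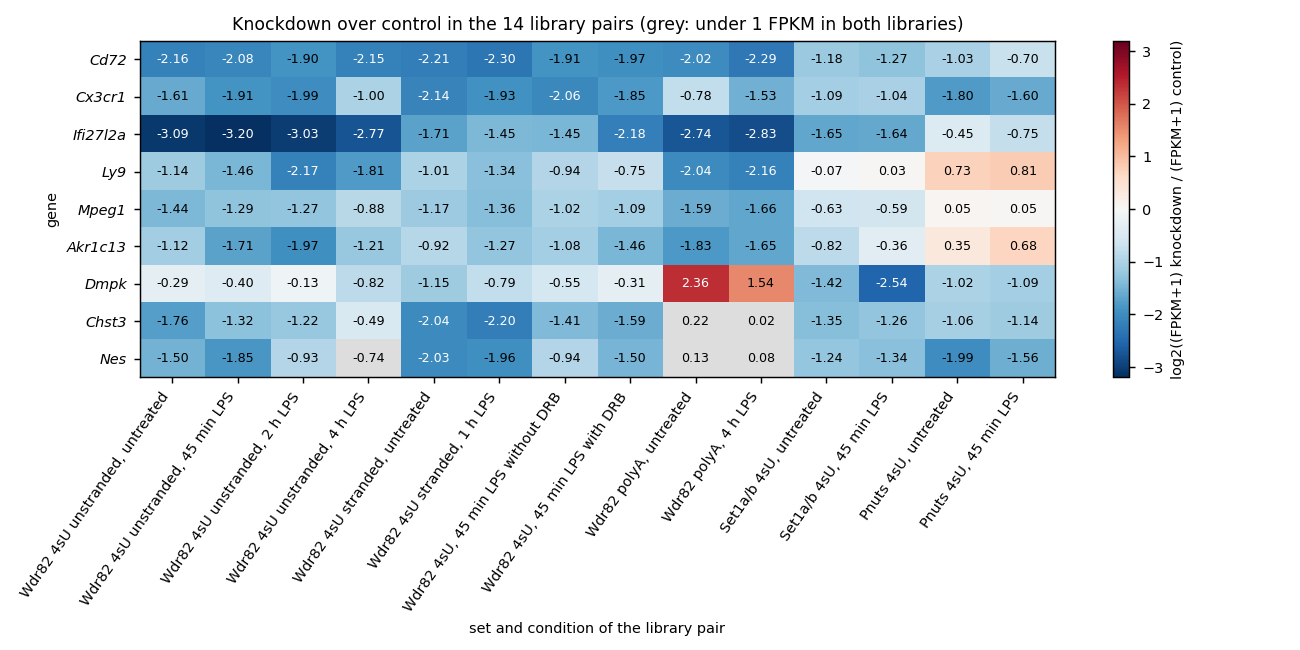
Colour and printed number give the log2 ratio of FPKM + 1, knockdown over control, for each gene (rows) in the 14 library pairs (columns), with 1 library on each side; grey cells had under 1 FPKM in both libraries. The top 3 rows are below 0 throughout, Ly9, Mpeg1 (by 0.05, and below 0 in 1 of the 2 after centring) and Akr1c13 are above 0 in the 2 Pnuts columns, and Dmpk is above 0 in the 2 polyA columns.

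Over all genes, 181 of 10230 tested in all 14 pairs (1.77%) had a ratio below 0 in each of them, and none was 2-fold lower in each. Among those 181, Ifi27l2a ranked first by its mean log2 ratio (-2.07), Cd72 ranked second (-1.80) and Cx3cr1 ranked at 4 (-1.60). Across the 12 pairs of 4sU RNA the number was 666 of 10827 genes (6.15%), and Cx3cr1 was the 1 gene 2-fold lower in all 12. Across the 10 Wdr82 pairs it was 499 of 10305 genes (4.84%), and the 2 genes 2-fold lower in all 10 were Cd72 and Ifi27l2a. Without the 2 Pnuts pairs, 348 genes were below 0 in each pair, against 181 with them, and Mpeg1 and Akr1c13 joined the first 3 genes. Leaving out pairs loosens the condition for every gene, and no share of tested genes is given for this count. The genes named in this paragraph had been picked on these same ratios. Their ranks, their 2-fold calls and their place among the genes lower in every pair follow from that choice and only describe them.

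Cd72 (chr4:43454811-43467500, mm9) encodes a C-type lectin-like inhibitory receptor that binds the semaphorin SEMA4D and is best known from B cells. In the unstranded set it was at 7.42, 10.95, 58.8 and 115 FPKM in sh1137 cells (untreated, then 45 min, 2 h and 4 h of LPS), against 36.6, 49.6, 222 and 512 FPKM in LMP cells. In the stranded set it was at 14.1 and 27.8 FPKM in sh1137 cells, against 69.1 and 141 FPKM in LMP cells. At every time the sh1137 library was the lower one, while its level after 4 h of LPS exceeded that of LMP cells before LPS. The DRB set gave 7.75 and 9.70 FPKM in sh1137 cells without and with DRB, against 31.8 and 40.8 FPKM in scrambled cells. PolyA RNA gave 65.9 and 78.9 FPKM in sh1137 cells, against 271 and 390.5 FPKM in LMP cells. All 10 Wdr82 pairs lay between -2.30 and -1.90 on the log2 scale, a narrow range for levels that differed this much between sets. In the libraries labelled Set1a/b Cd72 was at 27.8 and 32.3 FPKM, against 64.03 and 79.5 FPKM in scrambled cells, and in those labelled Pnuts at 22.4 and 34.96 FPKM, against 46.8 and 57.4 FPKM. These 4 pairs were also lower, with log2 ratios of -1.18 and -1.27 (Set1a/b) and -1.03 and -0.70 (Pnuts). The deposited confidence bounds of Cd72 were wide, and those of knockdown and control lay apart in 2 of 14 pairs. Tesk1, which shares the Cd72 locus in the tables, was below 0 in 11 of 14 pairs (median -0.37) and 2-fold lower in none, and reads of the overlap cannot be assigned without strand in the unstranded and polyA sets.

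Ly9 (chr1:173518755-173537541) encodes a SLAM family receptor (CD229) that binds itself on neighbouring cells. It was at 11.1, 10.5, 11.99 and 18.2 FPKM in sh1137 cells of the unstranded set, against 25.6, 30.6, 57.5 and 66.5 FPKM in LMP cells. PolyA levels were 24.4 and 33.1 FPKM in sh1137 cells and 104 and 151 FPKM in LMP cells. Stranded 4sU RNA gave 25.5 and 29.5 FPKM in sh1137 cells and 52.3 and 76.1 FPKM in LMP cells, and the DRB set 12.6 and 19.3 FPKM in sh1137 cells and 24.99 and 33.2 FPKM in scrambled cells. All 10 Wdr82 pairs were lower, between -2.17 and -0.75. In the libraries labelled Set1a/b the levels were 35.7 and 42.3 FPKM, against 37.5 and 41.4 FPKM in scrambled cells, with log2 ratios of -0.07 and 0.03. The libraries labelled Pnuts had more Ly9, 48.7 and 64.1 FPKM against 28.9 and 36.1 FPKM in scrambled cells. Ly9 was thus below its control in the Wdr82 pairs and above it in the Pnuts pairs, and the deposited bounds lay apart in 1 of 14 pairs.

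Cx3cr1 (chr9:119957811-119977400) encodes the receptor of fractalkine and marks monocytes and tissue macrophages. It was at 9.16, 8.80, 4.36 and 2.27 FPKM in sh1137 cells of the unstranded set, against 29.9, 35.9, 20.3 and 5.56 FPKM in LMP cells. In the stranded set it was at 10.7 and 15.3 FPKM in sh1137 cells, against 50.6 and 61.1 FPKM in LMP cells, and the bounds did not overlap in either pair. The DRB set held 3.98 and 8.49 FPKM in sh1137 cells and 19.7 and 33.1 FPKM in scrambled cells. Each of these hairpin libraries was below its control by 2-fold or more. In polyA RNA the levels were 6.42 and 1.87 FPKM in sh1137 cells and 11.8 and 7.31 FPKM in LMP cells. In the libraries labelled Set1a/b they were 10.7 and 12.6 FPKM, against 23.8 and 27.1 FPKM in scrambled cells. Those labelled Pnuts held 9.07 and 10.8 FPKM, against 34.2 and 34.8 FPKM in scrambled cells, with bounds apart in both pairs. The untreated polyA pair was the 1 pair of the 14 under 2-fold, at -0.78, and the Pnuts pairs (-1.80 and -1.60) lay within the range of the Wdr82 pairs (-2.14 to -0.78).

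Mpeg1 (chr19:12535269-12539774) encodes perforin-2, a pore-forming protein of the macrophage endosome that acts on engulfed bacteria. It had the highest level of the 9 genes, 177, 254, 301 and 612 FPKM in sh1137 cells of the unstranded set, against 481, 619.8, 727 and 1129 FPKM in LMP cells. Levels in the stranded set were 216 and 262 FPKM in sh1137 cells and 487 and 676 FPKM in LMP cells, and polyA RNA 402 and 732 FPKM in sh1137 cells and 1210.3 and 2313 FPKM in LMP cells. With DRB absent and present, sh1137 cells had 244 and 349 FPKM and scrambled cells 495 and 747 FPKM. The 10 Wdr82 pairs were between -1.66 and -0.88. The libraries labelled Set1a/b were nearer to their controls, 411 and 533 FPKM against 637 and 803 FPKM in scrambled cells. Those labelled Pnuts lay just above theirs as deposited, though after centring on the median gene the 45 min pair was just below, 606 and 830.3 FPKM against 584 and 804 FPKM in scrambled cells. Its bounds overlapped in all 14 pairs.

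Ifi27l2a (chr12:104680377-104695433) encodes a small interferon-induced membrane protein of the ISG12 family. Its unstranded levels were 16.2, 16.2, 21.8 and 44.3 FPKM in sh1137 cells, against 146, 157, 185 and 308 FPKM in LMP cells, with log2 ratios of -3.09, -3.20, -3.03 and -2.77, the lowest of any of the 9 genes. PolyA RNA held 128 and 159 FPKM in sh1137 cells and 859 and 1140.1 FPKM in LMP cells, with bounds apart in both pairs. Stranded 4sU RNA gave a smaller difference, 20.2 and 15.9 FPKM in sh1137 cells against 68.4 and 45.2 FPKM in LMP cells. The DRB set held 31.6 and 47.04 FPKM in sh1137 cells without and with DRB, against 88.3 and 217 FPKM in scrambled cells. Libraries labelled Set1a/b held 120.3 and 124 FPKM, against 379 and 391 FPKM in scrambled cells. The smallest differences were in those labelled Pnuts, 135 and 128 FPKM against 185 and 216 FPKM in scrambled cells. Bounds lay apart in 8 of 14 pairs, more than for any other of the 9. Ifi27l2b, a family member that shares the locus in the tables, had a mean of 0.0680 FPKM over the 28 libraries.

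Akr1c13 (chr13:4190430-4204842) encodes a cytosolic aldo-keto reductase, which reduces carbonyl groups with a nicotinamide cofactor. It was at 3.49, 2.84, 1.38 and 3.42 FPKM in sh1137 cells of the unstranded set, against 8.76, 11.6, 8.32 and 9.23 FPKM in LMP cells. Stranded 4sU RNA gave 8.73 and 7.03 FPKM in sh1137 cells and 17.4 and 18.3 FPKM in LMP cells. PolyA RNA gave 3.57 and 3.20 FPKM in sh1137 cells and 15.2 and 12.2 FPKM in LMP cells. All Wdr82 pairs, including the DRB set (-1.08 and -1.46), were lower in sh1137 cells. Under the Set1a/b label, hairpin cells held 6.61 and 8.11 FPKM, against 12.5 and 10.7 FPKM in scrambled cells. In those labelled Pnuts the direction turned, with 12.7 and 15.3 FPKM against 9.76 and 9.16 FPKM in scrambled cells. Akr1c12, its close paralogue on the same chromosome, was at 0.929, 0.960, 0.555 and 0.835 FPKM in sh1137 cells of the unstranded set and 3.11, 2.82, 3.04 and 3.07 FPKM in LMP cells. The counting could split reads between these copies, so both are uncertain, and the deposited bounds of Akr1c13 overlapped in all 14 pairs.

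Dmpk, Chst3 and Nes were abundant in 4sU RNA relative to polyA RNA. Dmpk (chr7:19669198-19679170) encodes a serine/threonine kinase whose human gene carries the repeat expanded in myotonic dystrophy. In the unstranded set it was at 49.02, 35.4, 17.3 and 7.35 FPKM in sh1137 cells, against 60.2, 47.1, 19.1 and 13.8 FPKM in LMP cells, so that the pairs were close (-0.29, -0.40, -0.13 and -0.82 on the log2 scale). The stranded set gave 47.5 and 44.02 FPKM in sh1137 cells and 107 and 76.8 FPKM in LMP cells, and the DRB set 11.9 and 26.7 FPKM in sh1137 cells and 17.9 and 33.4 FPKM in scrambled cells. The libraries labelled Set1a/b held 8.07 and 3.23 FPKM, against 23.2 and 23.6 FPKM in scrambled cells, with bounds apart in both pairs. Those labelled Pnuts held 44.2 and 28.03 FPKM, against 90.4 and 60.6 FPKM in scrambled cells. The 12 pairs of 4sU RNA were all lower, but only 1 of the 8 Wdr82 pairs among them by 2-fold. PolyA RNA went the other way, with 6.41 and 4.62 FPKM in sh1137 cells against 0.441 and 0.929 FPKM in LMP cells and log2 ratios of 2.36 and 1.54. The untreated polyA pair had bounds apart.

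Chst3 (chr10:59644280-59682008) encodes a sulfotransferase that adds sulfate to the galactosamine of chondroitin chains. It was at 1.52, 2.15, 1.16 and 0.521 FPKM in sh1137 cells of the unstranded set, against 7.57, 6.89, 4.05 and 1.13 FPKM in LMP cells. The stranded set gave 1.80 and 2.35 FPKM in sh1137 cells and 10.5 and 14.4 FPKM in LMP cells, and the DRB set 4.06 and 2.72 FPKM in sh1137 cells and 12.5 and 10.2 FPKM in scrambled cells. The libraries labelled Set1a/b held 1.82 and 2.11 FPKM and those labelled Pnuts 4.70 and 4.46 FPKM, against 6.22 and 6.43 FPKM and 10.9 and 11.04 FPKM in their scrambled cells. Chst3 was lower in 12 of 12 pairs of 4sU RNA and by 2-fold in 11. In polyA RNA it stayed under 1 FPKM and was not tested, at 0.440 and 0.150 FPKM in sh1137 cells and 0.233 and 0.136 FPKM in LMP cells.

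Nes (chr3:87775000-87784373) encodes nestin, an intermediate filament protein of progenitor cells. It was at 0.539, 0.317, 0.377 and 0.0899 FPKM in sh1137 cells of the unstranded set, against 3.35, 3.76, 1.63 and 0.818 FPKM in LMP cells. The stranded set gave 0.897 and 0.785 FPKM in sh1137 cells and 6.73 and 5.92 FPKM in LMP cells, and the DRB set 0.480 and 0.718 FPKM in sh1137 cells and 1.84 and 3.85 FPKM in scrambled cells. All 8 of these hairpin libraries were under 1 FPKM. Under the Set1a/b label, hairpin cells held 1.21 and 1.24 FPKM and those labelled Pnuts 0.774 and 1.60 FPKM, against 4.23 and 4.68 FPKM and 6.06 and 6.66 FPKM in their scrambled cells. Nes was lower in all 11 pairs of 4sU RNA in which it was tested, by 2-fold in 9, with bounds apart in 7. PolyA levels were 0.132 and 0.0901 FPKM in sh1137 cells and 0.0377 and 0.0319 FPKM in LMP cells, too low to test.

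**Figure D2:**
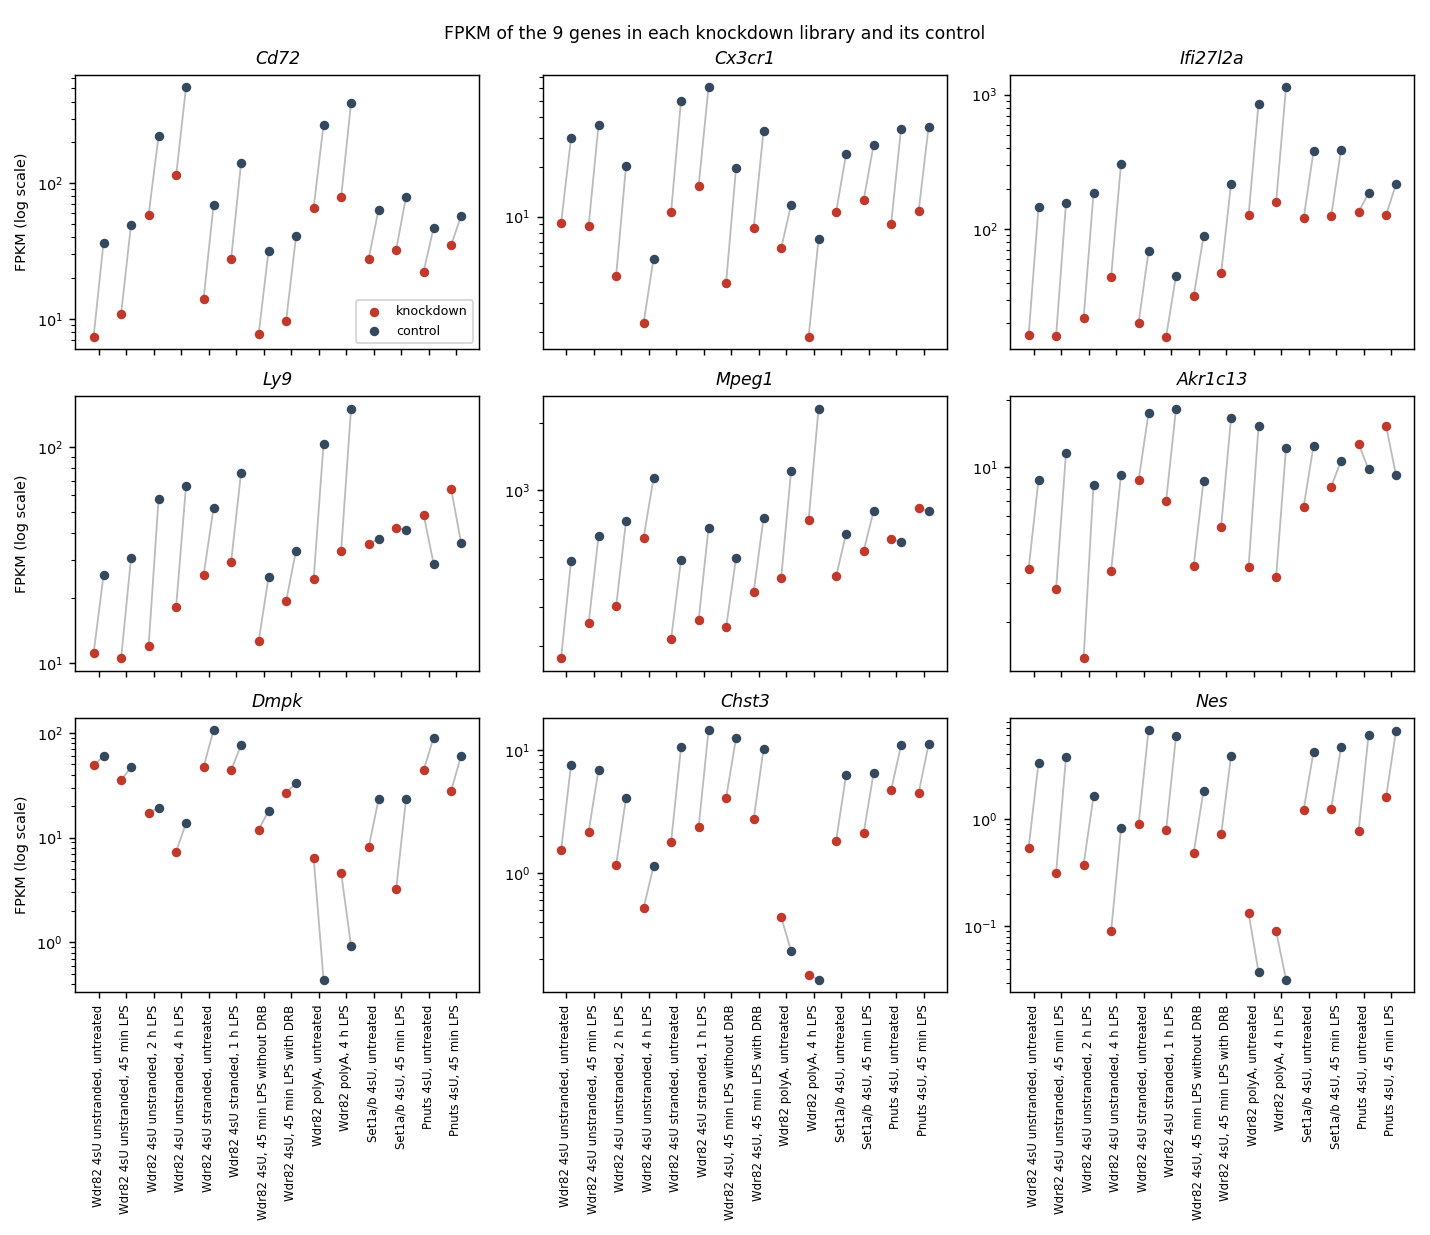
FPKM on a log axis for each of the 9 genes, with 1 point per library, the hairpin library left of its control and a grey line joining each of the 14 pairs. The line climbs from hairpin to control in all pairs of Cd72, Cx3cr1 and Ifi27l2a, and descends in the 2 polyA pairs of Dmpk, where the control is under 1 FPKM.

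Set side by side, the untreated control levels in polyA RNA and in unstranded 4sU RNA split the 9 genes. These tables were normalised separately, so the ratio is a description. Its median over 13462 genes was -0.10 on the log2 scale, polyA over 4sU. Cd72 (2.85), Ifi27l2a (2.55), Ly9 (1.98) and Mpeg1 (1.33) were higher in polyA RNA than 91.6% or more of these genes were. Akr1c13 was at 0.73 and Cx3cr1 at -1.28. Dmpk (-5.41), Chst3 (-2.80) and Nes (-2.07) were at the low end, with 1.23% of the genes below Dmpk, 2.69% below Chst3 and 5.65% below Nes.

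LPS was no part of the choice of the genes. In the unstranded set the 9 genes went in different directions over 4 h. Cd72 had log2 ratios over untreated cells of 0.51, 2.83 and 3.78 in sh1137 cells (45 min, 2 h and 4 h) and 0.43, 2.57 and 3.77 in LMP cells. Mpeg1 had 0.52, 0.76 and 1.78 in sh1137 cells and 0.36, 0.59 and 1.23 in LMP cells, and Ifi27l2a 0.00, 0.40 and 1.40 in sh1137 cells and 0.10, 0.34 and 1.07 in LMP cells. These 3 genes were higher after 4 h by 2-fold or more with either vector. Cx3cr1 was at -1.64 in sh1137 cells and -2.24 in LMP cells after 4 h, and Dmpk at -2.58 in sh1137 cells and -2.05 in LMP cells. Chst3 was at -0.73 in sh1137 cells and -2.01 in LMP cells. Nes was at -1.26 in LMP cells and was under 1 FPKM throughout in sh1137 cells. Akr1c13 ended near its start, at -0.02 in sh1137 cells and 0.07 in LMP cells. The LPS ratios of 1 vector share its untreated library, and each rests on single libraries.

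In the unstranded set the vectors differed by more than 1 on the log2 scale for Ly9 and Chst3. Ly9 was at -0.07, 0.10 and 0.67 in sh1137 cells and 0.25, 1.14 and 1.34 in LMP cells, so that sh1137 minus LMP was -1.04 at 2 h and -0.68 at 4 h. For Chst3 the difference was 1.28 at 4 h, where its sh1137 library was under 1 FPKM. Outside that set, Dmpk differed by more than 1 in the 45 min pairs labelled Set1a/b, at -1.10 in hairpin cells and 0.02 in scrambled cells (-0.05 after centring on the median gene), a difference of -1.12. The differences at 2 h and 4 h rest on single libraries, with no test. Of the 8 genes tested in sh1137 cells after 4 h, 3 were 2-fold higher and 2 were 2-fold lower, where 20.7% and 11.1% of all tested genes were. In LMP cells the counts were 4 of 9 higher and 4 of 9 lower, where 19.9% and 10.8% of all genes were. After 45 min the count was 0 in either direction, of 8 genes in sh1137 cells (8.2% of all genes higher, 3.44% lower) and of 9 in LMP cells (5.53% higher, 3.99% lower). After 2 h they were 1 higher (12.8%) and 1 lower (7.98%) of 8 in sh1137 cells, and 2 higher (11.2%) and 1 lower (6.67%) of 9 in LMP cells. In the stranded set after 1 h, 0 of 8 genes were past 2-fold in sh1137 cells (4.08% of all genes higher, 3.83% lower), and in LMP cells Cd72 was higher and 0 of 9 were lower (3.81% higher, 2.97% lower). In the 45 min pairs labelled Set1a/b, Dmpk was 2-fold lower in hairpin cells (3.24% of all genes lower, 5.79% higher) and 0 of 9 genes were past 2-fold in scrambled cells (2.87% lower, 5.22% higher). In those labelled Pnuts the count was 0 of 9 in hairpin cells (3.7% lower, 8.04% higher) and in scrambled cells (2.89% lower, 5.22% higher). In polyA RNA after 4 h, Cx3cr1 was at -1.37 in sh1137 cells and -0.62 in LMP cells. It was the 1 gene of the 7 tested that was 2-fold lower in sh1137 cells (5.85% of all genes), where 0 of 7 were higher (15.9%), and of 6 genes in LMP cells 0 were lower (8.58%) or higher (18.6%). Mpeg1 was at 0.86 in sh1137 cells and 0.93 in LMP cells. Cd72 had 0.26 in sh1137 cells and 0.53 in LMP cells, far less than in 4sU RNA at the same time.

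**Figure D3:**
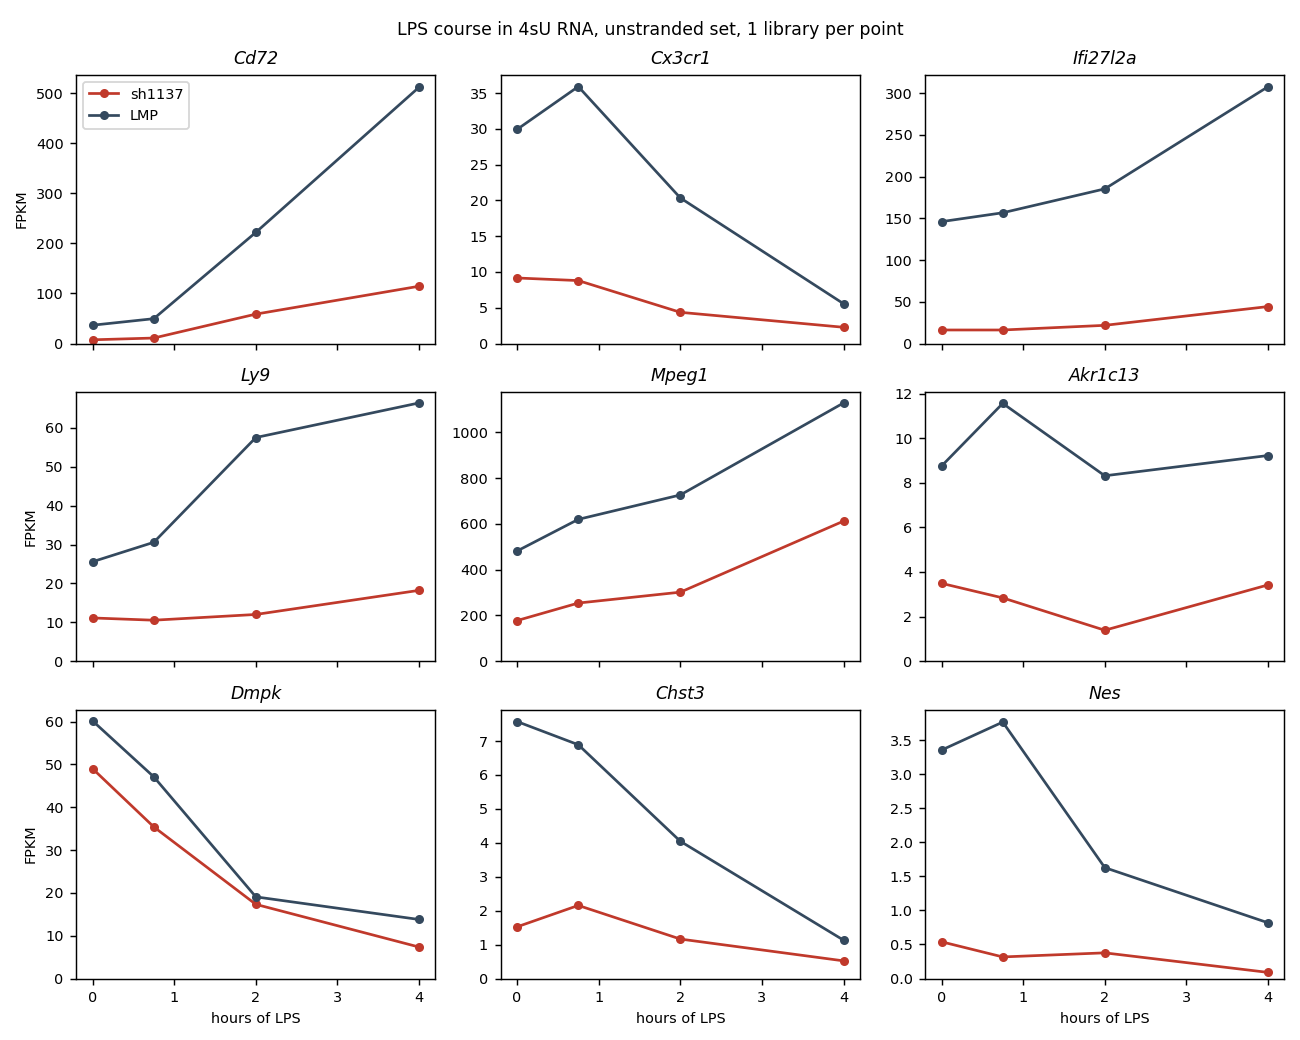
FPKM of the 9 genes against hours of LPS in the unstranded set of 4sU RNA, with sh1137 (red) and LMP (dark) cells and 1 library per point. Cd72, Ifi27l2a and Mpeg1 end at their highest level with both vectors, Cx3cr1, Dmpk and Chst3 end at their lowest, and the sh1137 line is under the LMP line at every time in all 9 panels.

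Early LPS responses could be tested across the 4 sets of 4sU RNA that had untreated cells and cells after 45 min or 1 h of LPS. A limma fit with the set as a block and Benjamini-Hochberg adjustment called 599 genes higher (4.5%) and 222 lower (1.67%) of 13299 in hairpin cells. In control cells it called 944 higher (7.36%) and 395 lower (3.08%) of 12825, or 732 and 513 after centring on the median gene. Of the 9 genes, Mpeg1 alone passed, in control cells, with a log2 change of 0.41 (SE 0.082), higher in 4 of 4 sets and a limma adjusted p of 0.0387. In hairpin cells Mpeg1 was at 0.41 (SE 0.10), also higher in 4 of 4 sets, with a limma adjusted p of 0.0755, or 0.0411 without the stranded Wdr82 set. The control call ended after centring (limma adjusted p 0.0578), with a minimum of 5 FPKM (0.0507), and without the unstranded Wdr82 (0.169), Set1a/b (0.155) or Pnuts set (0.166). Cd72 was higher in 4 of 4 sets in hairpin cells (0.57, SE 0.14, limma adjusted p 0.0706) and in control cells (0.51, SE 0.14, limma adjusted p 0.0797). Without the stranded Wdr82 set, whose LPS time was 1 h, Cd72 was past the threshold in control cells (0.34, limma adjusted p 0.0342). Over the alternatives its limma adjusted p in control cells ran from 0.0342 to 0.208, and that of Mpeg1 from 0.0273 to 0.169.

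Dmpk was lower in 4 of 4 sets of hairpin cells (-0.58, SE 0.17, limma adjusted p 0.107) and in 3 of 4 sets of control cells (-0.34, SE 0.12, limma adjusted p 0.121). Without the stranded Wdr82 set the hairpin value was -0.73 with a limma adjusted p of 0.0428, within a range of 0.0428 to 0.297 over the alternatives. Ly9 was at 0.19 (SE 0.11) in hairpin cells and 0.31 (SE 0.091) in control cells, with a limma adjusted p of 0.313 in hairpin cells and 0.0901 in control cells. Cx3cr1 was at 0.22 (SE 0.12) in hairpin cells and 0.18 (SE 0.079) in control cells. Ifi27l2a, Chst3 and Akr1c13 lay between -0.09 and 0.16 in both, and Nes was too low to fit in hairpin cells and at 0.05 in control cells. In hairpin cells, 0 of 8 fitted genes passed in limma and 3 had an unadjusted p under 0.05. In control cells, 1 of 9 passed and 4 had an unadjusted p under 0.05. The hairpins differ between sets, so the spread in hairpin cells includes that difference. The difference itself, hairpin minus control, was tested with limma on its value in each of the 4 sets, a test added after the data had been seen. It equals the hairpin over control ratio after LPS minus that ratio in untreated cells. The 9 genes were chosen on such ratios, so for them the values and their limma p are a description. The difference was -0.24 (SE 0.24, limma adjusted p 0.952) for Dmpk, lower in 3 of 4 sets. For Ly9 it was -0.12 (SE 0.12, limma adjusted p 0.952), lower in 2 of 4. The other 7 genes lay between -0.04 and 0.07. Of 13170 genes, 0 passed in either direction (0%), and 722 (5.48%) had an unadjusted p under 0.05, none of the 9 genes among them. A value that did not pass does not show that the responses were alike.

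**Figure D4:**
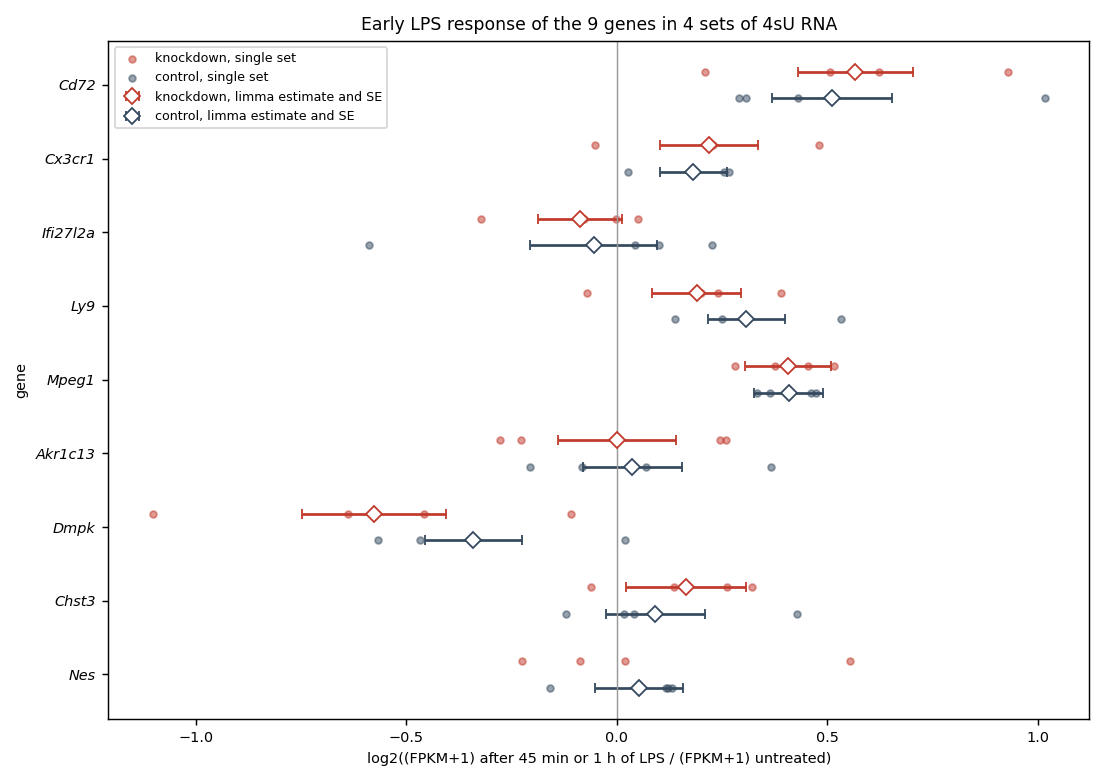
Log2 ratio of FPKM + 1 after 45 min or 1 h of LPS over untreated cells, for each gene, with hairpin cells (red) above control cells (dark). Small points are the 4 single sets, and diamonds with bars are the limma estimate and its SE (none for Nes in hairpin cells). The Mpeg1 and Cd72 points are all right of 0, and the 4 hairpin points of Dmpk are left of 0.

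The effect of DRB could be described in 1 pair per hairpin. Relative to no DRB, 13.4% of 13302 genes were 2-fold higher and 15.4% lower in sh1137 cells, and 16.4% higher and 15.7% lower of 13031 in scrambled cells. Of the 8 genes tested in sh1137 cells, Dmpk was 2-fold higher, and of the 9 tested in scrambled cells, Ifi27l2a was. None was 2-fold lower with either hairpin. Ifi27l2a was at 0.56 in sh1137 cells and 1.29 in scrambled cells, and Dmpk at 1.10 in sh1137 cells and 0.86 in scrambled cells. Cx3cr1 had 0.93 in sh1137 cells and 0.72 in scrambled cells, and Akr1c13 0.48 in sh1137 cells and 0.86 in scrambled cells. Chst3 was the 1 gene below 0 with both, at -0.45 in sh1137 cells and -0.27 in scrambled cells. The median of all genes was 0.18 in sh1137 cells and 0.16 in scrambled cells. Because FPKM is a share of the library, a higher value under DRB is a larger share of the RNA, and the amount was not measured.

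Genes within 50 kb of the 9 genes were no part of the choice. Distances and order follow the locus coordinates, not the strand of the genes. Of 16 neighbours with a mean of 5 FPKM or more, Dtx4 and Ifi27l1 went against the gene beside them. Dtx4 is a ubiquitin ligase gene of the deltex family, and its locus lies 1056 bp past that of Mpeg1. It was at 39.2, 62.2, 77.05 and 73.7 FPKM in sh1137 cells of the unstranded set, against 19.02, 29.8, 36.4 and 39.9 FPKM in LMP cells. It was higher in 12 of 14 pairs and by 2-fold in 9, with a median log2 ratio of 1.03, where 2.52 to 7.8% of all genes were 2-fold higher in a pair. The 2 lower pairs were those labelled Pnuts, in which Mpeg1 was within 0.06 of its control on the log2 scale. Ifi27l1, a family member that ends 1927 bp before Ifi27l2a, was at 56.8, 75.5, 84.2 and 141 FPKM in sh1137 cells of the unstranded set, against 26.9, 31.7, 31.98 and 46.8 FPKM in LMP cells. It was higher in 12 of 14 pairs, by 2-fold in 8, with a median of 1.11, and lower in both pairs labelled Set1a/b. Dmwd, a WD repeat gene that ends 1072 bp before Dmpk, was at 5.40 and 3.02 FPKM in sh1137 polyA RNA, against 0.656 and 0.777 FPKM in LMP polyA RNA. These 2 pairs, the same in which Dmpk was higher, were its 2 pairs past 2-fold.

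The other neighbours had medians between -0.72 and 0.30. Slamf7, a SLAM family gene 24992 bp past Ly9, had a median of 0.30, with 1 pair 2-fold lower and 1 higher. Near Cd72, Rusc2 had a median of 0.01, Ccdc107 -0.41, E130306D19Rik -0.72 and RNase_MRP -0.21. Slc25a38 near Cx3cr1 (0.11), Ddx24 near Ifi27l2a (-0.14), and Sympk (-0.10) and Fbxo46 (-0.11) near Dmpk were 2-fold different in none of 14 pairs. Near Nes, Rrnad1 (-0.16), Mrpl24 (-0.44) and Isg20l2 (-0.15) share a locus entry. Mrpl24 was 2-fold lower in 1 pair. Chst3 and Akr1c13 had no neighbour at this level.

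**Figure D5:**
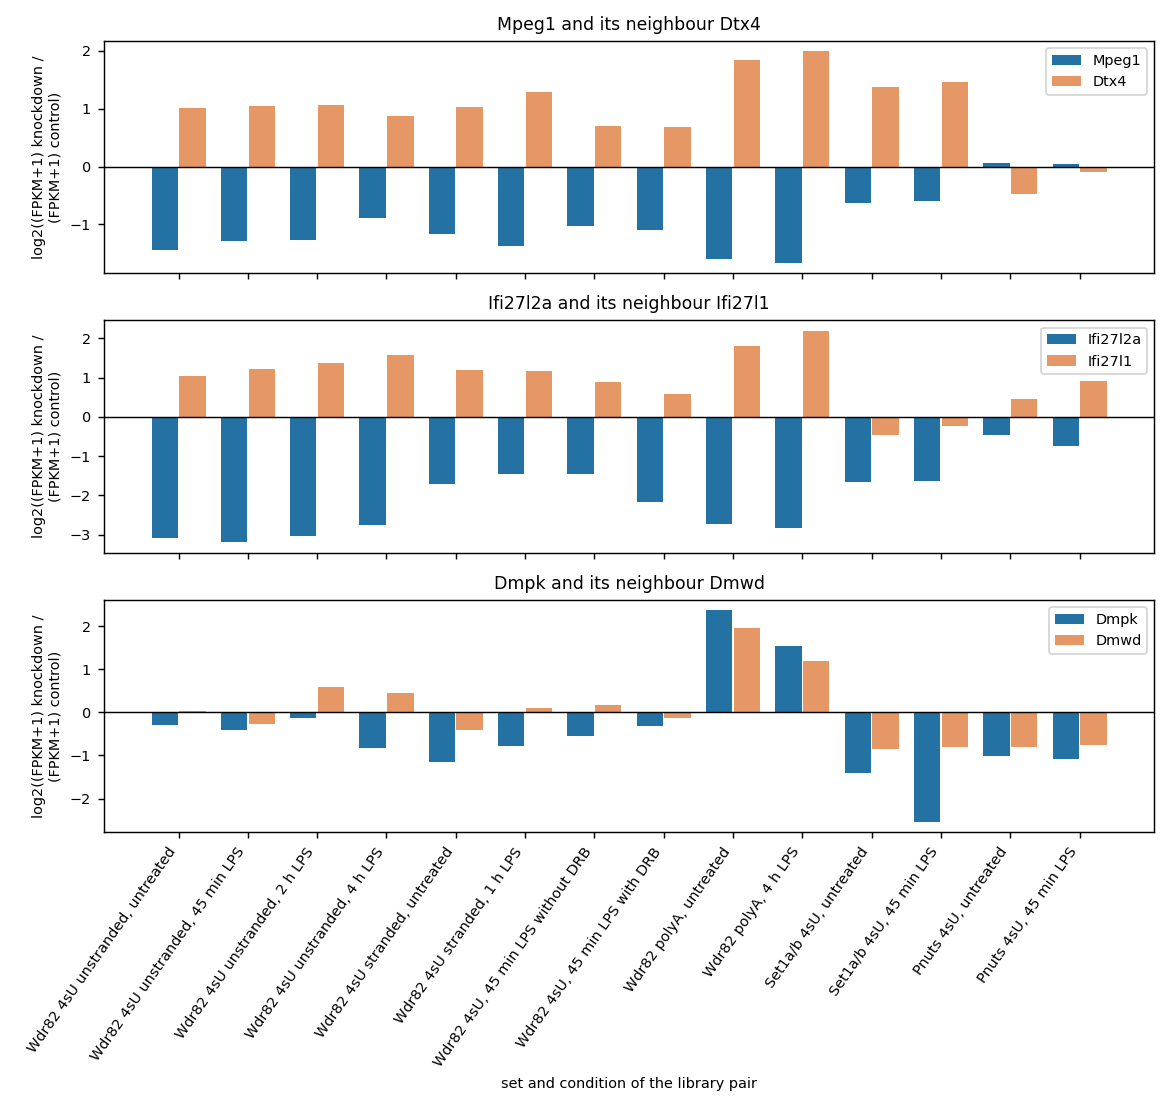
Bars give the log2 ratio of FPKM + 1, hairpin over control, in the 14 library pairs for Mpeg1 and Dtx4, Ifi27l2a and Ifi27l1, and Dmpk and Dmwd. Without centring, Dtx4 is above 0 in the 12 pairs in which Mpeg1 is below 0, and Dmpk and Dmwd are both above 0 in the 2 polyA pairs.

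Related genes, taken from lists of the 9 genes' families and pathways, are given by how many of their tested values over the 14 pairs were 2-fold lower or higher. All genes together were called lower in 1.56 to 4.7% and higher in 2.52 to 7.8% of cases per pair. Among partners of CD72 and other inhibitory receptors, 13 of 155 values were lower and 11 higher. Sema4d, its ligand, had a median of -0.52 and was below 0 in 12 of 13 pairs, and the inhibitory lectin gene Clec12a was 2-fold lower in 7 of 14 (median -0.95). Sirpa (0.17) and the phosphatase gene Ptpn6 (-0.03) had medians near 0. Pecam1, an inhibitory receptor gene chosen after its values were seen, held 9 of the 11 higher calls and was above 0 in 13 of 13 pairs (median 1.86). In the SLAM family, 11 of 77 values were lower and 5 higher. Cd48, a partner receptor, was 2-fold lower in 6 of 14 pairs (median -0.59), and Slamf9 was below 0 in all 14 and 2-fold lower in 4 (median -0.75). Cd84 (-0.20) and Slamf7 (0.30) were not lower by 2-fold in more than 1 pair. Cd244, a receptor for CD48 chosen after its values were seen, held 3 of the 5 higher calls and was above 0 in 12 of 14 pairs (median 0.79). Among genes of the fractalkine axis and of monocytes, 6 of 118 values were lower and 8 higher. The sheddase genes Adam17 (median 0.00) and Adam10 (-0.14) and the integrin gene Itga4 (0.02) were near 0, and Ccr2, a monocyte chemokine receptor, was 2-fold lower in 2 pairs (median -0.42).

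Interferon-stimulated genes had 43 of 386 values 2-fold lower (11.1%) and 9 higher. The list's median ratio ran from -0.64 to 0.53 over the pairs and was below 0 in 9 of 14. Cmpk2 (median -0.17), Ifit2 (-0.14) and Ifit1 (-0.10) were 2-fold lower in at most 1 pair, and Mx1 (-0.58) in 3. Oas2 (-1.02) and Oasl1 (-1.01), antiviral genes of the oligoadenylate synthetase family chosen after their values were seen, held 8 and 7 of the 43 lower calls. Aldo-keto reductases had 9 of 99 values lower and 1 higher, and the 4 most abundant of them, Akr1a4 (0.27), Akr1b10 (0.14), Akr7a5 (-0.03) and Akr1e1 (-0.37), were called in no pair. The paralogue Akr1c12 held 7 of the 9 lower calls (median -1.03). Chondroitin sulfate synthesis genes had 5 of 200 values lower and 4 higher, with medians of -0.10 for Xylt2, 0.29 for Dse, -0.07 for Xylt1 and 0.05 for B4galt7. Xylt2 was 2-fold lower in 2 pairs and Xylt1 in 1. Kinases related to DMPK had 2 of 140 values lower and 0 higher, both from Stk38l (median -0.46), and Stk38 (0.01), Rock1 (0.11), Cit (-0.30) and Lats1 (-0.01) were called in no pair. Among intermediate filament genes, 6 of 58 values were lower and 1 higher, and 5 of the 6 were from Lmnb1, a nuclear lamin gene (median -0.87). Vim (-0.40), Lmna (-0.15) and Lmnb2 (-0.23) were called in no pair. Genes of pore-forming and complement proteins had 0 of 21 values lower and 2 higher. Gsdmd, a pore-forming gasdermin, gave 14 of the 21, with a median of -0.03. The complement genes C8g and C9 gave 4 and 3, and C9, at a mean of 0.251 FPKM, held the 2 higher calls. The count therefore says little about the family of MPEG1. Of the Ifi27 family, Ifi27l1 alone was tested.

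Macrophage markers were present in all libraries. The summed level of 9 markers was 1492 to 4544 FPKM in the 12 hairpin libraries of 4sU RNA (median 2431) and 1847 to 4442 FPKM in their controls (median 2867). In polyA RNA it was 3443 and 4829 FPKM in sh1137 cells and 4912 and 9330 FPKM in LMP cells. In pairs, the sum was lower in the hairpin library in all 10 Wdr82 pairs and in the untreated pairs labelled Set1a/b and Pnuts, and higher in the 45 min pairs of those labels. It leaves out Lyz2, whose status was not OK in every library. Most of the macrophage sum is Lgals3, Cd14 and Cd68, at means of 1307, 654 and 462 FPKM, so it mainly follows these genes. Of the single values of 10 markers, Lyz2 included, 14 of 138 (10.1%) were 2-fold lower and 5 higher, and Lyz2 held 4 of the 5. Of the 4 most abundant, Lyz2 had a median of 0.13 and Lgals3 of -0.09, while Cd14 was below 0 in 11 of 14 pairs (-0.70) and Cd68 in 13 (-0.71). Csf1r, the receptor of a macrophage growth factor (median -0.43), and the Fc receptor gene Fcgr1 (median -1.02, 2-fold lower in 7) were below 0 in all 14, and both were chosen after their values were seen. The rest of the 10 markers, also named after their values were seen, were mixed or mostly above 0. Emr1 was below 0 in 7 of 14 pairs (median 0.01), Itgam in 4 (0.11), Cd63 in 2 (0.35) and Mertk in 3 (0.35). The part of these markers in the lower levels of Cd72, Ly9, Cx3cr1 and Mpeg1 was not tested. B lymphocyte markers, which matter because Cd72 and Ly9 are B cell genes too, summed over 11 markers to 4.04 to 18.7 FPKM in hairpin libraries and 2.57 to 12.97 FPKM in control libraries of 4sU RNA. In polyA RNA the sum was 40.5 and 29.7 FPKM in sh1137 cells and 117 and 76.4 FPKM in LMP cells, with 3 markers at 1 FPKM or more, and Cd79a and Pax5 were under 0.1 FPKM. Over the 10 Wdr82 pairs the B lymphocyte sum was lower in 3, both polyA pairs among them, and higher in 7. It was lower in both pairs labelled Set1a/b and higher in both labelled Pnuts. Most of that sum is Ighm, at a mean of 15.6 FPKM, while Cd79b, the next, was at 1.84 FPKM. T and NK markers summed to 0.846 to 18.6 FPKM in hairpin and 0.869 to 3.08 FPKM in control libraries of 4sU RNA, with Cd3e and Cd3g under 0.1 FPKM, and 13 of 23 values were 2-fold higher and 0 lower. Their sum was higher in the hairpin library in 13 of 14 pairs. Lck and Cd4, at means of 2.84 and 1.34 FPKM, held 6 each of the 13 higher calls. B lymphocyte markers had 4 of 28 values lower and 4 higher, neutrophil markers 12 of 88 lower and 8 higher, and stromal markers 3 of 38 lower and 9 higher. Dendritic cell markers had 0 of 58 values lower and 11 higher, and summed to 42.8 to 359 FPKM in hairpin and 26.8 to 146 FPKM in control libraries of 4sU RNA. The dendritic sum was higher in the hairpin library in all 14 pairs. Most of that sum is Cd74 and H2-Ab1, at means of 77.2 and 22.9 FPKM, while Xcr1, the next, was at 1.47 FPKM. Xcr1 was 2-fold higher in 4 of 4 tested pairs (median 1.92), and Itgax was below 0 in 0 of 11. Zbtb46 was below 0 in 1 of 8 tested pairs and Ccr7 in 2 of 3. Clec9a was below 0 in 1 of 3 and 2-fold higher in 2. Itgax, Zbtb46 and Clec9a were named after their values were seen. The sum thus mainly follows Cd74 and H2-Ab1, and dendritic cells were not counted. Neutrophil markers summed to 8.70 to 107 FPKM in hairpin and 9.07 to 82.5 FPKM in control libraries, and stromal markers to 3.97 to 12.3 FPKM in hairpin and 2.89 to 18.04 FPKM in control libraries. The neutrophil sum was higher in both hairpin libraries labelled Set1a/b, 38.03 and 47.4 FPKM against 12.4 and 18.2 FPKM in scrambled cells, and lower in both labelled Pnuts, 17.9 and 15.5 FPKM against 28.9 and 33.4 FPKM. In polyA RNA it was 14.3 and 46.7 FPKM in sh1137 cells and 42.0 and 104.5 FPKM in LMP cells, and over the 10 Wdr82 pairs it was lower in 5 and higher in 5. The part of the lymphocyte, dendritic and neutrophil markers in the ratios of the 9 genes was not tested.

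Across the 28 libraries, each centred on its table, the 9 genes differed in how alike their patterns were. Pearson's r among Cd72, Ly9, Mpeg1 and Ifi27l2a was 0.80 to 0.91, and between Chst3 and Nes 0.92, Cx3cr1 and Chst3 0.90, and Cx3cr1 and Nes 0.88. Akr1c13 correlated with Ifi27l2a (0.89) and Ly9 (0.85). Dmpk was closest to Nes (0.63) and Chst3 (0.63), and between -0.29 and 0.06 with Cd72, Ly9, Mpeg1, Ifi27l2a and Akr1c13. These values are descriptions, since the libraries share the choice of the genes, their hairpins and their LPS times. Among 8171 other genes, the 2 most like each were Cd52 (0.91) and Ccdc88b (0.87) for Cd72, Cd48 (0.95) and Folr2 (0.90) for Ly9, and Coro1a (0.93) and Tle1 (0.91) for Cx3cr1. They were C3ar1 (0.93) and Pdzd11 (0.93) for Mpeg1, Cd48 (0.90) and Mrpl55 (0.90) for Ifi27l2a, and Mrpl24 (0.90) and Slc25a11 (0.88) for Akr1c13. Mettl1 (0.95) and Hist1h1b (0.90) came out for Chst3, Hist1h2af (0.93) and Cxcl14 (0.91) for Nes, and the neighbour Dmwd (0.88) with Angptl2 (0.85) for Dmpk. After centring on each hairpin and control pair, 3 of these 18 remained among the 2 most like, namely Tle1, Cd48 for Ly9, and C3ar1.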

How the data were processed

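Levels are FPKM deposited by the authors, in 6 tables normalised separately, with confidence bounds (level not stated) and a status per gene, per the file headers. The submitters' processing notes name TopHat 1.3.1, Cufflinks 2.1.1, Cuffdiff 2.1.1 and the mouse build mm9. Ratios are log2 of FPKM + 1, within a table, with a minimum of 1 FPKM in either library and the status OK in both, and a call is 2-fold. The tests are limma 3.58.1 fits of the early LPS response with the set as a block and of its hairpin minus control difference per set, where the 4 sets stand as replicates although their hairpins and times differ. They were tested on simulated data with known changes. No other test was run: the hairpin ratios chose the members, and each pair is 1 library against 1. For the members the hairpin minus control difference, built from those ratios, is a description. The 9 members and all gene lists were chosen with earlier results of these data known. Text names all 9 members, neighbours within 50 kb at a mean of 5 FPKM or more, the targets, up to 4 of the most abundant genes of a list and the 2 genes most like each member. Csf1r, Fcgr1, Emr1, Itgam, Cd63, Mertk, Pecam1, Cd244, Oas2, Oasl1, Akr1c12, Stk38l, Itgax, Zbtb46 and Clec9a were named after their values were seen. Alternatives were other pseudocounts, filters, scaling and sets left out.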

Additional observations from a re-analysis of the deposited data

Results flagged for a closer look

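Ly9, Mpeg1 and Akr1c13 were above the control in both library pairs labelled Pnuts and below it in all 10 Wdr82 pairs, but for Mpeg1 the 45 min Pnuts pair (0.05) turned to -0.04 after centring on the median gene. For Ly9 the median log2 ratios were 0.77 in the 2 Pnuts pairs and -1.40 in the Wdr82 pairs, a difference of 2.17. Mpeg1 had medians of 0.05 (Pnuts) and -1.28 (Wdr82), a difference of 1.33. Akr1c13 had medians of 0.51 (Pnuts) and -1.36 (Wdr82), a difference of 1.88. Mpeg1 and Akr1c13 were also below the control in both Set1a/b pairs, with medians of -0.61 and -0.59, so that the Pnuts medians were higher by 0.66 for Mpeg1, whose Pnuts sign is subject to the same centring, and by 1.10 for Akr1c13. Dmpk was above the control in both polyA pairs of the Wdr82 hairpin (median 1.95) and below it in all 8 pairs of 4sU RNA (median -0.48), a difference of 2.43. None of these differences was tested, since the genes had been chosen on the same ratios. Ppp1r10, the Pnuts target, was not lower in the libraries labelled Pnuts, which hold 4sU RNA only.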

How the results depend on the processing

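The 9 genes were 2-fold lower in 89 gene and pair combinations, and in 83 to 91 under the 4 alternatives (a pseudocount of 0.1 FPKM, centring on the median gene, no filter, and a minimum of 5 FPKM). No called ratio of a member changed sign under them. Centring turned the sign of 9 ratios, each within 0.0685 of 0, among them the 45 min Pnuts pair of Mpeg1 (-0.04 against 0.05), and of 3 limma estimates near 0, those of Akr1c13 in hairpin and control cells and of Nes in control cells. Of 255 single ratios, 7 passed 2-fold only with the pseudocount of 0.1 and 5 no longer did after centring. Higher calls in knockdown went to 1 at a minimum of 5 FPKM, against 2. Higher calls with DRB went to 4 with the pseudocount of 0.1 and to 1 after centring, against 2. The alternatives for neighbours and gene lists, and those leaving out pairs, were chosen after seeing the data. With the pseudocount of 0.1, lower calls of neighbours were 8, against 5, and higher calls of gene lists 163, against 99, and these were 62 at a minimum of 5 FPKM. Genes lower in all pairs numbered 348 without the Pnuts pairs and 666 without the polyA pairs, against 181. Of the 18 genes most like a member, 3 remained after centring on pairs. With no filter, limma called 221 genes higher and 40 lower in hairpin cells, and 519 higher and 128 lower in control cells. Leaving out 1 set in turn gave 65 to 1330 higher and 5 to 768 lower in hairpin cells, and 149 to 1559 higher and 16 to 992 lower in control cells, each highest without the stranded Wdr82 set. The cause was not tested. For the hairpin minus control difference in the early LPS response, added with its alternatives after seeing the data, limma called 0 genes in either direction under each alternative, except that leaving out 1 set in turn gave 0 to 2 lower, with 2 without the stranded Wdr82 set. The 9 genes had limma adjusted p from 0.808 to 1.000 there, a description only, since the ratios behind the difference chose them. No paired analysis was possible because the labels give no replicate numbers that groups share, beyond the set that the limma fits already use as a block or as the pair. The depth per library is unknown and the level of the deposited bounds is not stated.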
